A study of Homo sapiens with 8 samples.

Results

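The genes described here encode the urokinase system and its serpins, which are PLAU, PLAUR, PLAT, SERPINE2 and SERPINB2. They were taken by name, as every gene probe of the array annotated with one of the 5 gene names. These are 5 of 43317 gene names on the array and 7 of its 58201 gene probes. The arrays measured total RNA of SAS, an established tongue squamous cell carcinoma line that the paper describes as SAS/GFP cells, which carry a GFP vector. Cells had received 25 nM of a negative control miRNA (NC) or a mimic (miR-874-3p, miR-629-3p or miR-210-3p) by transfection, and each of these 4 groups was hybridised to 2 arrays. By the labels, control cells had the same medium, with puromycin, as the cells given a mimic. Extraction followed 48 h after transfection in the sample labels and 24 h in the paper, and the cells represent transient transfection of 1 line. All comparisons below ask how a mimic moved these transcripts, in a study of miRNAs, cisplatin resistance and migration.

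Urokinase, the product of PLAU, is a secreted serine protease that cleaves plasminogen to plasmin, a broad protease that degrades fibrin and other matrix proteins. Its receptor uPAR, the product of PLAUR, is held on the cell surface by a lipid anchor and keeps this activity at the leading edge of migrating cells. PLAT encodes tissue plasminogen activator, the second human plasminogen activator, best known for dissolving fibrin clots. SERPINE2 encodes protease nexin-1 and SERPINB2 encodes plasminogen activator inhibitor type 2, both serpins that trap urokinase in a stable complex. In squamous carcinoma the system is known for its part in invasion, with urokinase and uPAR frequently made by the tumour cells themselves.

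The 3 mimics have different seeds, the bases that direct a miRNA to its targets, and their mature sequences are shown because every contrast below is between these RNAs. They were taken from RefSeq (GRCh38.p14), with the seed (bases 2 to 8) in capitals. All are encoded on the minus strand, miR-629-3p at chr15:70079387-70079408, miR-210-3p at chr11:568112-568133 and miR-874-3p at chr5:137647582-137647603.
miR-629-3p: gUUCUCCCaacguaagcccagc
miR-210-3p: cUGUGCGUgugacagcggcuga
miR-874-3p: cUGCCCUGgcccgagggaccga
The letters that pair with the seeds, GGGAGAA for miR-629-3p, ACGCACA for miR-210-3p and CAGGGCA for miR-874-3p, were searched in the 60-base probe sequences on the strand of the transcript. They were present in 0.747%, 0.131% and 0.387% of all gene probes respectively, and in 0 of the 7 probes of the urokinase system. The probes cover only a short piece of each transcript, and the rest of the transcripts was not searched here.

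Values are log2 signals relative to the 75th percentile of the same array, so that 0 is the level of that percentile and a difference of 1 is 2-fold. Groups were compared with limma across 21283 genes on all 8 arrays, and a gene was called at a Benjamini-Hochberg adjusted p under 0.05. The adjusted p-values and standard errors (SE) below are from this fit unless another setting is named. Between 41.8% and 49.8% of gene probes were well above background on an array. Row 1 of the slide held the arrays of miR-210-3p and miR-629-3p, and row 2 those of NC and miR-874-3p. For miR-629-3p or miR-210-3p against NC or miR-874-3p, the mimic and the slide row therefore cannot be told apart. The number of genes whose replicates lay at least 2-fold apart was higher for miR-874-3p (954) and NC (879) than for miR-210-3p (479) and miR-629-3p (378). Nothing states that replicates were separate cultures, so the p-values measure the spread between these samples, which may be technical. Of the squamous markers, 8 of 8 epithelial genes (KRT5, KRT14, KRT6A, KRT17, TP63, CDH1, EPCAM and DSG3) were well above background on all 8 arrays. Some markers of other cell types were too, so detection alone does not bear out the squamous label. The leukocyte marker CD14 read 1.09 to 1.77 over the arrays, and KRT6A -1.24 to -0.08. Of 6 fibroblast markers, COL1A2, COL3A1, DCN and LUM were well above background on 0 arrays, COL1A1 on 6 and PDGFRB on 8. The summed fibroblast level was highest on the miR-210-3p arrays, at -0.11 and 1.00 (log2), against -0.82 to -0.61 on the other arrays. This followed COL1A1, at -1.63 and 0.53 on the miR-210-3p arrays. PDGFRB read -1.05 and -1.15 there, -1.13 and -1.12 after miR-629-3p, and -1.68 to -1.54 on the NC and miR-874-3p arrays. A link to the miR-210-3p results was not tested. Of 4 endothelial markers, CDH5 and VWF were well above background on all 8 arrays, and of 5 leukocyte markers PTPRC and CD14 were. The summed endothelial level ranged from 1.34 to 1.46 after miR-629-3p, from 0.50 to 0.72 after miR-210-3p, from 0.40 to 0.87 after miR-874-3p and from 0.81 to 1.56 after NC. As every sample is 1 cell line, these sums are levels of marker transcripts and no measure of other cell types. The summed leukocyte level ranged from 1.49 to 1.60, 1.86 to 1.94, 1.46 to 2.05 and 1.70 to 1.996 in the same order.

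All 5 genes were well above background on all 8 arrays by their brightest probe, so each had a measured level in every group. PLAU and PLAT rose after miR-210-3p, PLAU rose and PLAUR fell after miR-629-3p, and neither serpin passed the test in any of the 6 comparisons. Against NC, 2 of the 5 genes were called after miR-629-3p (PLAU higher and PLAUR lower), where 16.8% of all genes tested were called, 9.28% higher and 7.47% lower. With miR-210-3p, 2 of the 5 were called, both higher (PLAU and PLAT), where 6.05% of all genes were called in either direction and 3.85% higher. With miR-874-3p, 0 of the 5 were called, where 0.423% of all genes were. At an unadjusted p under 0.05 limma counted 1 of the 5 after miR-874-3p, which was PLAU, where 16.4% of all genes passed.

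**Figure D1:**
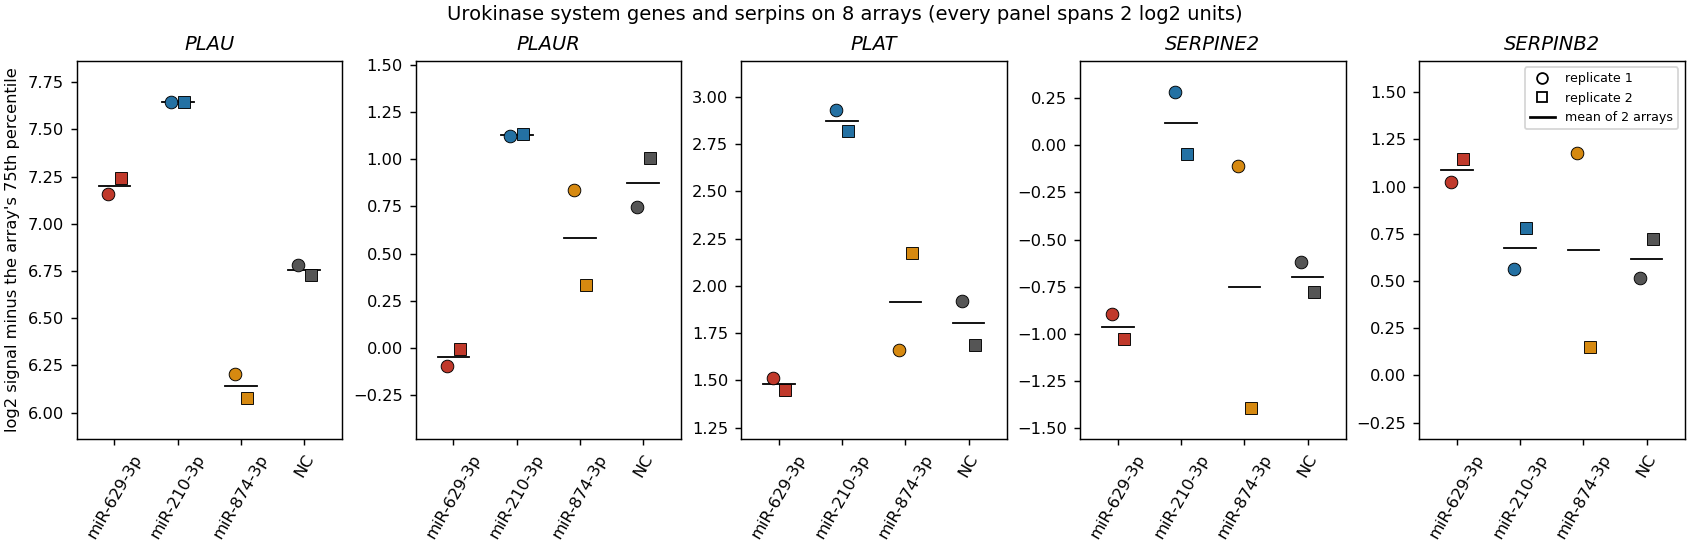
Log2 signal relative to the array's 75th percentile (y axis, each panel 2 log2 units high) of the 5 genes on each of the 8 arrays, by group (x axis), with circles for replicate 1, squares for replicate 2 and a line at the mean of 2. PLAU arrays of the 4 groups do not overlap, the miR-629-3p arrays lie lowest for PLAUR, the miR-210-3p arrays lie highest for PLAT, and the 2 miR-874-3p arrays lie far apart for SERPINE2 and SERPINB2.

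PLAU, the urokinase gene itself, separated the 4 groups without overlap. Its main probe lies at chr10:75677050-75677109 (hg19, plus strand) and is annotated to the transcript NM_002658. It read 7.16 and 7.24 after miR-629-3p, 7.65 and 7.64 after miR-210-3p, 6.20 and 6.08 after miR-874-3p, and 6.78 and 6.73 after NC. The order was thus miR-210-3p, miR-629-3p, NC and miR-874-3p, and every step of it exceeded the gap between replicates. Arrays that do not overlap were common, in 65.5% of all genes for miR-629-3p against NC, 61.5% for miR-210-3p and 43.6% for miR-874-3p, and in 70.2% for miR-629-3p against miR-210-3p and 60.8% and 57.9% for these mimics against miR-874-3p. PLAU was 1.86-fold higher after miR-210-3p than after NC (log2 difference 0.89, SE 0.08, adjusted p 0.00931). With miR-629-3p it was 1.36-fold higher (0.45, SE 0.08, adjusted p 0.0192). With miR-874-3p the difference was -0.61 (SE 0.08, 95% interval -0.80 to -0.42), which missed the threshold at an adjusted p of 0.0547, from an unadjusted p of 0.000281 in the same fit. For miR-629-3p the call was lost without any array of miR-629-3p, miR-210-3p or NC, with differences of 0.40 to 0.49 and adjusted p between 0.0513 and 0.104, and for miR-210-3p it was lost without either miR-210-3p array (0.89 each, adjusted p 0.0743 and 0.07). The first was also lost with the 2 groups alone (adjusted p 0.0501) and the second with no filter on detection (0.0616). The methods' t-test of each gene by itself, adjusted here over all genes, called neither (adjusted p 0.120 and 0.122). With miR-874-3p PLAU was called lower with a variance trend (adjusted p 0.00706), with normexp background correction (0.0168) and among genes well above background on all 8 arrays (0.0485), where the differences were -0.59 to -0.61.

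The second PLAU probe, at chr10:75674614-75674673 and annotated to NM_001145031, was dimmer and kept the same order of group means. It read 2.14 and 1.79 after miR-629-3p, 2.71 and 2.68 after miR-210-3p, 1.18 and 0.55 after miR-874-3p, and 1.55 and 1.51 after NC. The 4 groups again did not overlap, although the miR-874-3p replicates lay farther apart (SD 0.45) than on the main probe (SD 0.09). In the limma fit over every kept probe, its difference from NC was 1.16 after miR-210-3p (SE 0.22, adjusted p 0.0455). The differences were 0.43 after miR-629-3p (SE 0.22, adjusted p 0.239) and -0.67 after miR-874-3p (SE 0.22, adjusted p 0.248), neither of which passed.

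PLAUR, the urokinase receptor, was lowest after miR-629-3p. Its 1 probe lies at chr19:44169498-44169557 (hg19, minus strand), annotated to NM_001005377. It read -0.09 and -0.01 after miR-629-3p, 1.12 and 1.13 after miR-210-3p, 0.84 and 0.33 after miR-874-3p, and 0.75 and 1.01 after NC. Both miR-629-3p arrays lay below all others, while the miR-874-3p and NC arrays overlapped. PLAUR was 1.90-fold lower after miR-629-3p than after NC (log2 difference -0.93, SE 0.18, adjusted p 0.0260). With miR-210-3p the difference was 0.25 (95% interval -0.20 to 0.70, adjusted p 0.433), and after miR-874-3p it was -0.29 (-0.74 to 0.16, adjusted p 0.475). Thus PLAU and PLAUR were called in opposite directions after miR-629-3p, by the same fit over the same arrays. The PLAUR call was lost without any array of miR-629-3p, miR-210-3p or NC (differences -1.06 to -0.80, adjusted p 0.0563 to 0.129), with the replicate number as a block (adjusted p 0.0561) and by the methods' t-test (0.138). With normexp correction the difference was smaller, at -0.57, and still called.

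PLAT, the tissue plasminogen activator gene, was highest after miR-210-3p. Its probe, at chr8:42032812-42032871 (hg19, minus strand) and annotated to NM_000930, is printed at 10 spots on every array, so the error within an array could be read directly. The spot means were 1.51 and 1.45 after miR-629-3p, 2.93 and 2.82 after miR-210-3p, 1.66 and 2.17 after miR-874-3p, and 1.92 and 1.69 after NC. Spots of the same array varied with an SD of 0.04 to 0.10 over 8 to 10 spots, after 2 spots of miR-629-3p replicate 2 and 1 of miR-210-3p replicate 1 were left out as outliers. The gap between the miR-874-3p replicates, 1.66 against 2.17, was therefore wider than the spread of spots within either array (SD 0.09 and 0.07). PLAT was 2.10-fold higher after miR-210-3p than after NC (log2 difference 1.07, SE 0.18, adjusted p 0.0354), and it was the only gene of the 5 that also passed 2-fold at an unadjusted p under 0.05 against NC. The paper used this threshold for its array counts against NC and states no adjustment, while the p-values here are from limma. By that rule 3.14% of all genes passed after miR-210-3p, 5.26% after miR-629-3p and 2.02% after miR-874-3p. With miR-629-3p the difference was -0.32 (95% interval -0.77 to 0.13, adjusted p 0.275) and after miR-874-3p it was 0.11 (-0.34 to 0.57, adjusted p 0.802). The PLAT call after miR-210-3p was lost without any array of miR-629-3p, miR-210-3p or NC (differences 0.96 to 1.19, adjusted p 0.083 to 0.175). It was also lost with no filter on detection (adjusted p 0.0733), with the 2 groups alone (0.0567), with the replicate number as a block (0.0784) and by the methods' t-test (0.155), with the difference at 1.07 in each.

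**Figure D2:**
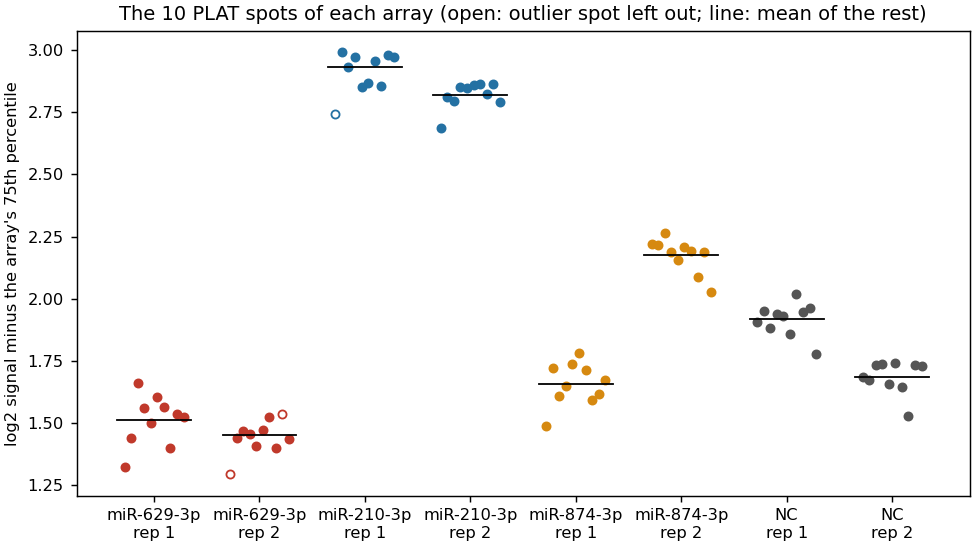
Log2 signal relative to the array's 75th percentile (y axis) of each of the 10 PLAT spots on each array (x axis, by group and replicate), with open points for outlier spots left out and a line at the mean of the others. Spots of 1 array lie close together, the miR-210-3p arrays lie above all others at 2.93 and 2.82, and the 2 miR-874-3p arrays are separated by more than their spots.

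The serpins gave no call in any comparison, and all their intervals spanned 0 except that of SERPINE2 for miR-629-3p against miR-210-3p. SERPINE2, read by a probe whose annotated ends span chr2:224840597-224842295 (hg19, minus strand, NM_006216), lay below the array's 75th percentile on all arrays but miR-210-3p replicate 1. The annotated span of 1699 bases is longer than the 60-base probe. It read -0.89 and -1.03 after miR-629-3p, 0.28 and -0.05 after miR-210-3p, -0.11 and -1.39 after miR-874-3p, and -0.62 and -0.78 after NC. Both miR-210-3p arrays lay above all others, while the miR-874-3p pair spread over almost the whole range of the gene (SD 0.90, against 0.09 to 0.23 in the other groups). The difference from NC was 0.82 after miR-210-3p (SE 0.40, 95% interval -0.18 to 1.81, adjusted p 0.269), -0.26 after miR-629-3p (-1.26 to 0.73, adjusted p 0.691) and -0.051 after miR-874-3p (-1.05 to 0.94, adjusted p 0.967). Because all groups share 1 estimate of the spread, the miR-874-3p pair set this error. Without miR-874-3p replicate 1, without replicate 2 or without both, the last a setting chosen after seeing the data, SERPINE2 was called higher after miR-210-3p than after NC (0.82 in each, SE 0.14, adjusted p 0.0372).

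SERPINB2 has a probe at chr18:61570202-61570261 (hg19, plus strand, NM_002575), which read 1.03 and 1.15 after miR-629-3p, 0.57 and 0.78 after miR-210-3p, 1.18 and 0.15 after miR-874-3p, and 0.51 and 0.72 after NC. The miR-629-3p arrays lay above the miR-210-3p and NC arrays, whereas the miR-874-3p arrays were the highest and the lowest of all 8. The difference from NC was 0.47 after miR-629-3p (SE 0.32, 95% interval -0.34 to 1.27, adjusted p 0.364), 0.056 after miR-210-3p (-0.75 to 0.86, adjusted p 0.936) and 0.047 after miR-874-3p (-0.76 to 0.85, adjusted p 0.962). A second SERPINB2 probe, at chr18:61538974-61539033 and annotated to ENST00000404622, was well above background on 0 of 8 arrays and gave no fold. The limma interval thus leaves room for a rise of more than 2-fold after miR-629-3p and for no change.

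The mimics were next set against each other. Arrays of miR-210-3p and miR-629-3p share a slide row, and between them 3 of the 5 genes were called, all lower after miR-629-3p, where 22.6% of all genes tested were called, and 12.7% were called lower. PLAT was 2.63-fold lower after miR-629-3p than after miR-210-3p (log2 difference -1.39, SE 0.18, adjusted p 0.00776), PLAUR was 2.26-fold lower (-1.18, SE 0.18, adjusted p 0.0114) and PLAU 1.36-fold lower (-0.45, SE 0.08, adjusted p 0.0153). SERPINE2 had a difference of -1.08 (95% interval -2.07 to -0.08, adjusted p 0.112) and SERPINB2 of 0.41 (-0.39 to 1.22, adjusted p 0.413). All 3 calls were lost without miR-629-3p replicate 1, without miR-629-3p replicate 2 or without miR-210-3p replicate 1 (adjusted p 0.0507 to 0.0925), and all but PLAT without miR-210-3p replicate 2 (PLAU 0.0856 and PLAUR 0.068). The PLAU call was also lost with no filter on detection (adjusted p 0.0759) and by the methods' t-test (0.0652). SERPINE2 was called lower without either or both miR-874-3p arrays (-1.08 in each, adjusted p 0.0101), with only the 2 groups in the fit (-1.08, 0.0203) and with normexp (-0.52, 0.049).

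Against miR-874-3p, 1 of the 5 genes was called after miR-629-3p, where 16.2% of all genes were called (9.34% higher), and 2 after miR-210-3p, where 9.8% were (6.33% higher). All 3 calls were higher than after miR-874-3p. PLAU was 2.08-fold higher after miR-629-3p than after miR-874-3p (log2 difference 1.06, SE 0.08, adjusted p 0.00305) and 2.84-fold higher after miR-210-3p (1.505, SE 0.08, adjusted p 0.00271). The latter was the widest PLAU difference of the 6 comparisons, and both PLAU calls held without each array in turn. Neither held by the methods' t-test (adjusted p 0.174 and 0.187), and the one after miR-210-3p was lost with the 2 groups alone (0.0620). PLAT was 1.94-fold higher after miR-210-3p than after miR-874-3p (0.96, SE 0.18, adjusted p 0.0350), a call lost without any array of miR-629-3p, miR-210-3p or NC (differences 0.90 to 1.01, adjusted p 0.0572 to 0.171), with no filter (0.112), with the 2 groups alone (0.134), with the block (0.0741) and by the methods' t-test (0.313). PLAUR had a difference of -0.63 after miR-629-3p (95% interval -1.08 to -0.18, adjusted p 0.0691) and of 0.54 after miR-210-3p (0.09 to 0.99, adjusted p 0.120), and the PLAT difference after miR-629-3p was -0.43 (-0.89 to 0.02, adjusted p 0.166). The serpin differences in these 2 comparisons ranged from -0.21 to 0.87, with adjusted p between 0.227 and 0.988.

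Several differences from miR-874-3p that were not called with all arrays were called when a miR-874-3p array was left out. Without miR-874-3p replicate 1, the limma fit called PLAT lower after miR-629-3p than after miR-874-3p (-0.69, adjusted p 0.0405) and SERPINB2 higher (0.93, adjusted p 0.0304). The same fit called SERPINE2 (1.51, adjusted p 0.0176) and PLAUR (0.80, adjusted p 0.0311) higher after miR-210-3p than after miR-874-3p. Without miR-874-3p replicate 2, PLAUR (-0.89, adjusted p 0.0187) and SERPINE2 (-0.85, adjusted p 0.0347) were called lower after miR-629-3p than after miR-874-3p. These comparisons then rest on 1 miR-874-3p array, which is assumed to vary like the arrays of the other groups.

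**Figure D3:**
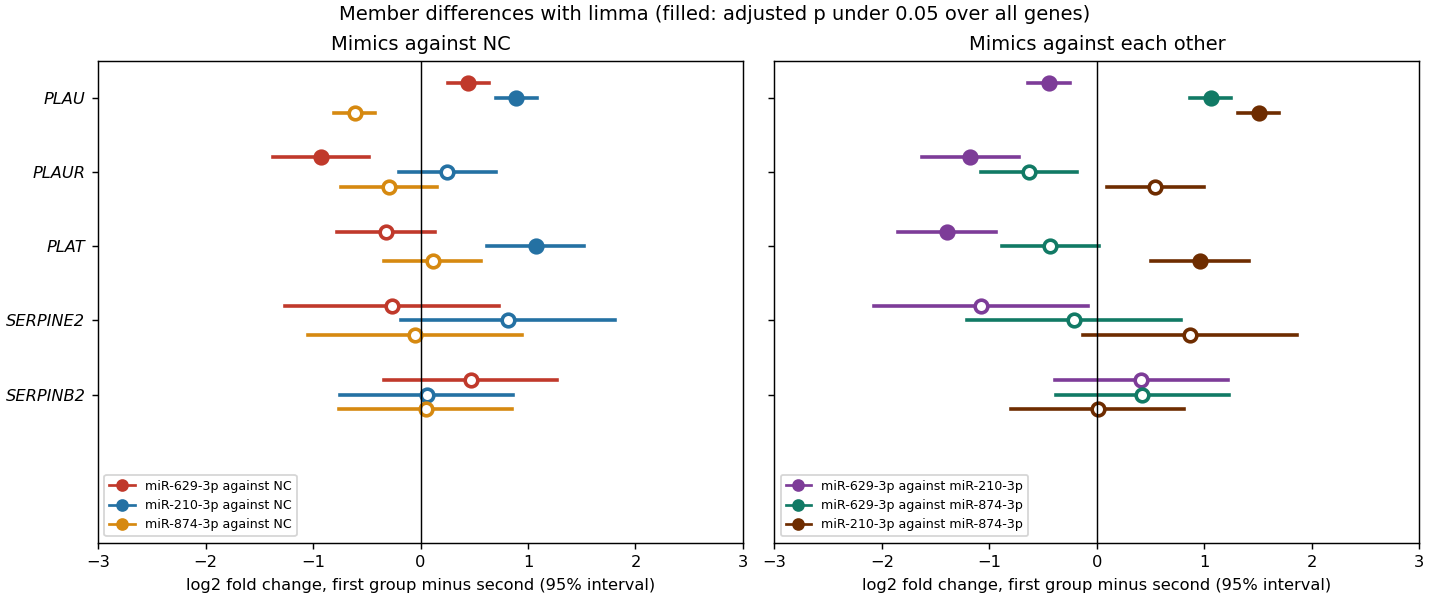
Log2 fold change, first group minus second (x axis, with the 95% interval as a line), of the 5 genes (y axis) for each mimic against NC (left) and for the mimics against each other (right), with filled points for an adjusted p under 0.05 over all genes. PLAU intervals are the narrowest and exclude 0 throughout, PLAUR and PLAT are filled in the contrast of miR-629-3p against miR-210-3p, and the serpin intervals are the widest, with no filled point.

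The genes around urokinase were read from 8 lists of 72 genes, of which 56 passed the filter. With miR-629-3p, 8 were called higher and 8 lower than after NC, or 28.6% of the 56, against 16.8% of all genes. Of the 8 higher genes, SERPINB7 and FOSB passed the detection filter only through groups where they are high, so their calls support nothing, and the same holds for FOSB among the 4 higher after miR-210-3p. With miR-210-3p, 4 were higher and 1 lower (8.93%, against 6.05%), and after miR-874-3p 0 were called (against 0.423%), with 10 of the 56 at an unadjusted p under 0.05 in limma (16.4% of all genes). The count after miR-210-3p was 12 with normexp (21.4%, beside 11.3% of all genes) and 9 with median centring (16.1%, beside 5.97%). It was 8 with quantile normalization (14.3%, beside 5.90%), 16 with a variance trend (28.6%, beside 11.8%) and 1 with the replicate block (1.79%, beside 2.31%). No filter gave 0 (beside 0.108%), as did the 2 groups alone (0.827%) and the methods' t-test (0.0047%). The count after miR-629-3p was 20 with normexp (35.7%, beside 21.5% of all genes), 24 with the trend (42.9%, beside 22.8%) and 11 with the block (19.6%, beside 9.61%). With no filter on detection it was 12, or 21.4%, which is below the 23.1% of all genes called. By the methods' t-test it was 0, as over all genes. The median log2 difference of the 56 was -0.055 after miR-629-3p, -0.063 after miR-210-3p and 0.0014 after miR-874-3p, beside 0.025, 0.050 and -0.0058 over all genes tested. Each array was also left out in turn, which leaves 1 array in a group. Fewer of the listed genes were then called after miR-629-3p and after miR-210-3p without any array of miR-629-3p, miR-210-3p or NC. More were called without either miR-874-3p array. The share of all genes called fell and rose likewise, so these changes are not particular to the lists.

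Around plasminogen itself, 4 of the 9 genes tested in 3 lists were called after miR-629-3p, where 16.8% of all genes were, and 0 after the other mimics. Of the 4 receptors and cofactors of plasminogen tested, 1 was called after miR-629-3p, which was KRT8, a keratin that binds plasminogen when exposed on the cell surface. KRT8 read 6.31 and 6.37 after miR-629-3p, 6.74 and 6.65 after miR-210-3p, 6.70 and 6.87 after miR-874-3p, and 6.95 and 7.06 after NC, and was 1.59-fold lower after miR-629-3p than after NC (adjusted p 0.0119). Of the 4 genes tested among plasminogen and the proteases that activate pro-urokinase, CTSB (cathepsin B) was higher after miR-629-3p (0.55, adjusted p 0.0208) and CTSL (cathepsin L) lower (-0.57, adjusted p 0.0123), both under 1.5-fold. The CTSB call held in 15 of 22 alternatives and the CTSL call in 18 of 22. Of the 5 other inhibitors of the plasminogen system only A2M passed the filter. It encodes alpha-2-macroglobulin, which traps plasmin and many other proteases. A2M was 2.03-fold lower after miR-629-3p than after NC (log2 difference -1.02, SE 0.24, adjusted p 0.0414), and -0.91 after miR-210-3p (adjusted p 0.0829) and 0.60 after miR-874-3p (adjusted p 0.297) did not pass. The A2M call held in 13 of 22 alternatives, and was lost with normexp (-0.43, adjusted p 0.0557), with the replicate block (0.0587), by the methods' t-test (0.107) and without any array of miR-629-3p, miR-210-3p or NC (0.0798 to 0.171). The KRT8 call held in 18 of 22, and was lost by the methods' t-test (0.111) and without either miR-629-3p array or NC replicate 2 (0.0613 to 0.0804). Among 8 uPAR partners (integrins, EGFR, MRC2 and others) and 4 genes of the endocytic clearance of activator and serpin complexes, 0 were called against NC with any mimic. At an unadjusted p under 0.05 limma counted 2, 2 and 1 of the partners and 3, 2 and 1 of the clearance genes for miR-629-3p, miR-210-3p and then miR-874-3p, where 33.6%, 26% and 16.4% of all genes passed.

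The serpins related to SERPINB2 were called in both directions after miR-629-3p. Of 9 other clade B serpins tested, 2 were called higher, 1 of them SERPINB7, and 3 lower than after NC, where 9.28% of all genes were higher and 7.47% lower. SERPINB9, the granzyme B inhibitor, read -2.44 and -2.56 after miR-629-3p, -1.62 and -1.64 after miR-210-3p, -1.54 and -1.38 after miR-874-3p, and -1.54 and -1.61 after NC, and was 1.90-fold lower after miR-629-3p than after NC (log2 difference -0.93, SE 0.09, adjusted p 0.00564). Both miR-629-3p arrays lay below all others. With normexp the difference was -0.28, still called (adjusted p 0.00782), and by the methods' t-test it was not (0.106). SERPINB3, the squamous cell carcinoma antigen, was not well above background on either miR-629-3p array, so that the fold is a bound, set against the dimmest detected signal of each array or the probe's own signal where that was higher. By this bound SERPINB3 was 2.44-fold lower after miR-629-3p than after NC. A limma fit with signals floored at the dimmest detected level gave an adjusted p of 0.0139. The call itself came from the signals as read (log2 difference -2.85, adjusted p 0.00614), and with normexp the difference was -0.37. Only 1 of the 2 NC arrays was well above background, so the bound is itself uncertain. The probe passed the filter through the miR-874-3p arrays. SERPINB3 and SERPINB4 are near-identical, so the SERPINB3 probe may read both. SERPINB4 had a difference of -2.93 between miR-629-3p and NC (SE 1.43, adjusted p 0.215) and was not called. SERPINB7 was at least 1.17-fold higher after miR-629-3p than after NC, but was well above background only on the 2 miR-629-3p arrays, through which it passed the filter, and its call counts as no test. Below 1.5-fold, SERPINB6 fell (-0.41, adjusted p 0.0176) and SERPINB5, known as maspin, rose (0.28, adjusted p 0.0431) after miR-629-3p, and SERPINB5 fell after miR-210-3p (-0.51, adjusted p 0.0193). The SERPINB6 call held in 17 of 22 alternatives. The SERPINB5 call held in 10 of 22 after miR-629-3p and in 12 of 22 after miR-210-3p.

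PLAUR belongs to the LY6/uPAR domain family, of which 13 of 16 other listed members were tested. With miR-629-3p, 1 was higher and 2 were lower than after NC, beside 16.8% of all genes called. CD59, the lipid-anchored inhibitor of the complement membrane attack complex, read 0.48 and 0.43 after miR-629-3p, -0.73 and -0.81 after miR-210-3p, -0.49 and -0.24 after miR-874-3p, and -0.37 and -0.45 after NC. It was 1.82-fold higher after miR-629-3p than after NC (log2 difference 0.87, SE 0.10, adjusted p 0.00822), in the opposite direction to PLAUR on the same arrays. The CD59 difference was 0.51 with normexp, still called, and the call was lost by the methods' t-test (adjusted p 0.100) and without either miR-629-3p array (0.0618 and 0.0539). LY6E (-0.45, adjusted p 0.0481) and LYPD6 (-0.32, adjusted p 0.0490) were lower by less than 1.5-fold, and these calls held in 8 and 7 of 22 alternatives. These genes below 1.5-fold, here and in the lists above, were named after their values were seen.

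AP-1, ETS and EGR factors are known regulators of PLAU and PLAUR, and 13 of 13 listed genes were tested. In this list 4 were called higher after miR-629-3p and 4 after miR-210-3p, where 9.28% and 3.85% of all genes were, and 0 lower with either. FOSB is among the 4 both times. The list's median difference from NC was -0.064 after miR-629-3p and 0.37 after miR-210-3p, beside 0.025 and 0.050 over all genes. EGR1, an immediate early zinc finger factor, read 5.87 and 5.63 after miR-629-3p, 5.49 and 5.62 after miR-210-3p, 4.94 and 5.00 after miR-874-3p, and 4.49 and 4.82 after NC. It was 2.14-fold higher after miR-629-3p (adjusted p 0.0107) and 1.87-fold higher after miR-210-3p (adjusted p 0.0301) than after NC, calls that held in 20 and 13 of 22 alternatives. ETV5, an ETS factor, read 0.95 and 0.68 after miR-629-3p, 1.05 and 1.11 after miR-210-3p, 0.26 and 0.14 after miR-874-3p, and 0.36 and 0.36 after NC. It was 1.64-fold higher after miR-210-3p (adjusted p 0.0267) and 1.37-fold higher after miR-629-3p (adjusted p 0.0429), calls that held in 14 and 11 of 22. ATF3, a stress-induced factor that pairs with AP-1 proteins, read 3.28 and 3.31 after miR-629-3p, 2.57 and 2.55 after miR-210-3p, 2.49 and 2.22 after miR-874-3p, and 2.20 and 2.22 after NC. It was 2.12-fold higher after miR-629-3p than after NC (adjusted p 0.00564) and 1.66-fold higher than after miR-210-3p (adjusted p 0.00903). The ATF3 call against NC held in 21 of 22. FOSB was well above background only on arrays of miR-210-3p and of miR-629-3p, through which it passed the filter, so its calls count as no test. Its bound was at least 1.15-fold higher after miR-210-3p than after NC, and no bound above 1 was reached after miR-629-3p. FOSL2, at 1.36-fold, was also higher after miR-210-3p (adjusted p 0.0331), a call that held in 12 of 22 alternatives.

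**Figure D4:**
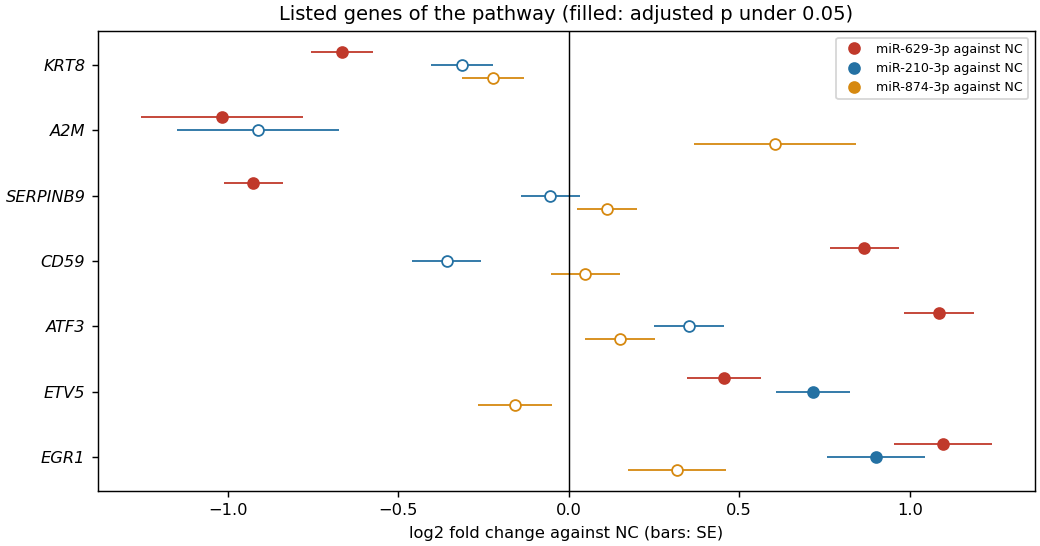
Log2 fold change against NC (x axis, bars are SE) of the listed pathway genes that were called at 1.5-fold or more in at least 1 comparison after NC and were well above background throughout (y axis), for each mimic, with filled points for an adjusted p under 0.05. Filled points are miR-629-3p for KRT8, A2M, SERPINB9, CD59 and ATF3, and miR-629-3p and miR-210-3p for ETV5 and EGR1, with none for miR-874-3p.

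The letters of the binding motifs of these factors were searched on both strands in the 250 bases before the start of the members. RefSeq (GRCh38.p14) gave windows for 4 of the 5 genes, with 2 each for PLAU and SERPINE2. The AP-1 letters TGANTCA were found in 1 place in PLAUR and 1 in SERPINB2, and lie in 6.57% of the 35116 windows of this length. The EGR letters GCGNGGGCG were found in 1 place in PLAUR, on the opposite strand, and lie in 8.41% of windows. The ETS letters CCGGAA were in none of the members' windows and in 14.5% of all windows. No 2 matches overlapped. The PLAUR and SERPINB2 windows are shown since they alone hold a match, which is in capitals. PLAUR, at chr19:43670170-43670419 on the minus strand, has the AP-1 letters 186 bases and the EGR letters 90 bases before the start. SERPINB2, at chr18:63887455-63887704 on the plus strand, has the AP-1 letters 102 bases before the start.
PLAUR: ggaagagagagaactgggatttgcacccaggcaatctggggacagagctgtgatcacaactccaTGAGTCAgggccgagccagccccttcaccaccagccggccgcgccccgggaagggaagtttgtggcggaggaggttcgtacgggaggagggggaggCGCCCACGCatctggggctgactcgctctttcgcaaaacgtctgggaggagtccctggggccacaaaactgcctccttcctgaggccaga
SERPINB2: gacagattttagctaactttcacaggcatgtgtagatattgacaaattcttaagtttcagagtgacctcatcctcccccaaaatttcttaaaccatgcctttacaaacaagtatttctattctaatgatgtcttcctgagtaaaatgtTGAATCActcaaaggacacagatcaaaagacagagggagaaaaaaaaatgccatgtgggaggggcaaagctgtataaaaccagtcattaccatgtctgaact
A match is a description of letters and not a binding site. Only the 250 bases before each start were searched, so a window with no match, as for PLAU, says nothing of the bases outside it.

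For each member the 3 genes with the most similar profile were sought among 17400 genes well above background on all 8 arrays, by the root mean square (RMS) difference over the 8 arrays after centring each gene on its own mean. For PLAU these were SEC24A (RMS 0.11 on the log2 scale), MRS2 (0.14) and MGP (0.15). SEC24A, like PLAU, was lowest on the miR-874-3p arrays, at 0.48 and 0.43, and highest on the miR-210-3p arrays, at 1.79 and 1.71. For PLAUR they included SNORA60 (0.09) and BTG3 (0.09), of which BTG3 read 2.73 and 2.67 after miR-629-3p against 3.41 and 3.52 after NC. For PLAT they were NTF3 (0.18), ENST00000522661 (0.19) and VDR (0.19), the vitamin D receptor, which read 3.96 and 3.95 after miR-210-3p against 3.11 and 3.00 after NC. For SERPINE2 they were SNORD18A (0.21), CCDC169 (0.22) and FOSL1 (0.23), an AP-1 subunit. FOSL1 read 3.48 and 3.56 after miR-629-3p, 4.37 and 4.43 after miR-210-3p, 4.05 and 3.41 after miR-874-3p, and 3.67 and 3.82 after NC. For SERPINB2 they were EDN1 (0.14), which encodes endothelin-1, STEAP1 (0.14) and XPA (0.14), and EDN1 read 1.59 and 1.01 on the miR-874-3p arrays. The lowest RMS among these genes was that of SNORA60 and the highest that of FOSL1, and the ranking describes these 8 arrays, which share a slide and 1 scan.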

How the data were processed

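Total RNA of 8 samples was labelled in 1 colour and hybridised to Agilent SurePrint G3 Human GE v3 arrays, 100 ng each. The authors deposited the Agilent Feature Extraction 11.5.1.1 output of each array (version per the submitters' processing notes), whose intensity values are background-subtracted and detrended spot signals, not normalized between arrays. They also deposited a log2 table of the same arrays, used as an alternative, which stated no scale but lay within 0.05 of the log2 values below in at least 99.5% of probes after a constant offset per array.

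Here log2 intensity was taken minus each array's 75th percentile over gene probes. Outlier spots were left out (87 to 346 of 60901) and spots of a probe averaged. A probe needed a value on all 8 arrays and a signal well above background on each replicate of 1 or more groups. Each gene was read by its brightest probe. No spot was saturated. Groups were compared with limma 3.58.1 (R 4.3.3) on all arrays, with no covariate, and the fit was tested on simulated data. Named genes are the 5 members, the listed genes called against NC at 1.5-fold or more, and 3 nearest profiles per member, of which 1 for PLAUR is not reported here. Members and lists were chosen with earlier results of these data known. The paper names a t-test and ANOVA for the whole study. For its array counts against NC it gives p under 0.05 with 2-fold and states no adjustment. The methods' t-test, here adjusted over all genes, other scalings and filters, a replicate block and each array left out served as alternatives.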

Additional observations from a re-analysis of the deposited data

How the results depend on the processing

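With the 2 groups alone in the fit, the number of the 5 genes called fell from 2 to 1 for miR-629-3p against NC, from 2 to 1 for miR-210-3p against NC and from 2 to 0 for miR-210-3p against miR-874-3p. The share of all genes called fell to 11.3%, 0.827% and 0.0705% in the same order. With no filter on detection the number of the 5 was 0 for miR-210-3p against NC and 1 for miR-210-3p against miR-874-3p. Of all genes, 0.108% and 0.645% were called there. Without this filter the median difference of all genes from NC moved from 0.025 to -0.17 with miR-629-3p. The methods' t-test gave 0 for either mimic against NC and 0 for either mimic against miR-874-3p, where at most 0.0141% of all genes were called. Normexp correction, the filter on all 8 arrays and the variance trend each gave 1 in place of 0 for miR-874-3p against NC and 2 in place of 1 for miR-629-3p against miR-874-3p. The share of all genes called rose with them. It went from 0.423% to 1.56%, 0.563% and 2.33% for miR-874-3p against NC. For miR-629-3p against miR-874-3p it went from 16.2% to 21.7%, 22.5% and 21.8%. With the replicate number as a block, 1 of the 5 was called for miR-629-3p against NC, 1 for miR-210-3p against NC and 1 for miR-210-3p against miR-874-3p, and no other count of the 5 genes moved by over 1.5 times. The block left 9.61%, 2.31% and 3.70% of all genes called in these 3 comparisons. Under the block the listed genes called fell from 5 to 1 for miR-210-3p against NC, and all genes called from 3565 to 2045 for miR-629-3p, from 1288 to 491 for miR-210-3p and from 90 to 42 for miR-874-3p against NC. Deviations of same-numbered arrays correlated between -0.11 and 0.03, so no shared deviation by replicate number was seen. This does not settle whether the samples were handled in pairs. The share of all genes called also changed with each array left out. In the comparisons among miR-629-3p, miR-210-3p and NC, this share fell without any array of these groups. It rose there without either miR-874-3p array. Each such fit leaves 1 array in a group. The ranges given next are therefore not particular to the 5 genes. With each array left out in turn, the count ranged from 0 to 2 for miR-629-3p against NC, 0 to 3 for miR-210-3p against NC, 0 to 0 for miR-874-3p against NC, 0 to 4 for miR-629-3p against miR-210-3p, 1 to 3 for miR-629-3p against miR-874-3p and 1 to 4 for miR-210-3p against miR-874-3p. The reversals were all among values not called with every array. With each array left out, SERPINB2 ranged from -0.051 to 0.16 (log2) for miR-210-3p against NC, -0.46 to 0.56 for miR-874-3p against NC, -0.091 to 0.93 for miR-629-3p against miR-874-3p and -0.50 to 0.52 for miR-210-3p against miR-874-3p. SERPINE2 ranged from -0.69 to 0.59 for miR-874-3p against NC and -0.85 to 0.43 for miR-629-3p against miR-874-3p, and PLAT from -0.14 to 0.37 for miR-874-3p against NC. SERPINB2 for miR-210-3p against miR-874-3p, 0.009 in the fit reported, was -0.044 with normexp, -0.016 with quantile normalization and -0.031 with median centring. The cause was not tested, other than that fewer arrays leave fewer degrees of freedom. The number of arrays, 2 in a group, limits the precision of each value, and signals near background limit the dim genes to bounds.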
